A study of Caenorhabditis elegans with 18 samples.

Results

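The regions described here are the intervals on the X chromosome of Caenorhabditis elegans in a table of small RNA counts. The table holds genes and, beside them, unnamed genomic intervals that each carry a chromosome, a start, an end and a strand. Every interval whose chromosome is X was taken, on both strands, with no use of its counts. This gave 6583 of the 55259 intervals and of the 75393 genes and intervals in all.

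The study sequenced small RNAs from whole worms at the L4 stage, the last larval stage, grown at 15 °C on bacteria with no further treatment. All 3 strains carried a single FLAG tag on an Argonaute. The first had 1xFLAG::WAGO-1 and is called intact below. The second had 1xFLAG::WAGO-1 together with a deletion in dpf-3, and the third had 1xFLAG::WAGO-3. Each strain gave 3 libraries from an anti-FLAG immunoprecipitate (IP) and 3 from the input extract, 18 libraries in 6 groups. No IP from an untagged strain was analysed here, so RNA that sticks to the beads cannot be told apart from RNA bound by the tagged protein. The inputs, but not the IPs, went through a small RNA enrichment step, which cannot be told apart from the IP in any comparison of an IP with its input. The labels do not say whether the replicates were separate cultures, so the p-values measure the spread between these libraries, which may be technical.

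WAGO-1 and WAGO-3 are worm-specific Argonautes that carry 22G RNAs, short RNAs with a 5′ triphosphate that RNA-dependent RNA polymerases make on a silenced transcript as template. They act in the germ line to keep transposons, pseudogenes, some genes and other foreign or repeated sequence silent. DPF-3 is a dipeptidyl peptidase, an enzyme that removes pairs of amino acids from the N terminus of proteins, and the title gives Argonaute processing by proteases as the study's subject. In the worm germ line the X chromosome is largely silent in transcription. The groups allow the questions which X intervals are recovered in each IP and how they differ between the deletion strain and the intact strain. Each genotype was a single strain, so the deletion cannot be told apart from any other difference between the strains.

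X intervals held 38432 to 151315 reads per IP library, of 2206087 to 5649896 reads assigned to genes and intervals. They held 743 to 11462 reads per input library, of 88761 to 517278, and the inputs of the deletion were the shallowest with 743 to 1012 X reads each. Changes that rest on an input are therefore far less precise than those between IPs. Reads of the targeted genes check the labels only in part, because the extent of the deletion is not given in the sources used here. Small RNAs counted under dpf-3 changed with the deletion by a log2 fold of -1.73 ± 0.59 (standard error) in the input (adjusted p = 0.0199 by edgeR's quasi-likelihood test) and by -0.54 ± 0.36 in the IP (adjusted p = 0.186). These rest on few reads, 6 in the deletion inputs against 39 in the intact inputs, and 51 against 30 in the IPs. All levels below are CPM, the count divided by the scaled size of the library and set to a common total, as mean ± SD of 3 libraries. A log2 fold comes with its standard error, and a call means an adjusted p under 0.05 over all 11648 features tested.

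Of the 6583 X intervals, 3986 had at least 1 read in the 18 libraries and 2597 had none. A filter on low counts left 359 for the tests. This was 5.45% of the X intervals, the highest percentage of the 6 chromosomes, on the others of which 1.84% to 4.03% of intervals were tested. The tested intervals held 93.7% of the 789945 X reads. The filter keeps an interval that is high in only 1 group, so counts below are of these 359 and not of all X intervals. The tested interval of fewest reads had 15 in all, and the untested one of most reads had 236.

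Reads on X were concentrated in few places and on one strand. The single interval of most reads held 11.2% of them, the top 10 held 35.9%, and 21 intervals held 50% of all X reads. The plus strand held 74.4% of X reads, 588019 against 201926, although the intervals themselves split evenly with 3252 on the plus and 3331 on the minus strand. On the other 5 chromosomes the plus strand held 48.8% to 65.6% of interval reads. Whether a plus-strand interval lies sense or antisense to a transcript was not tested. The median span (end minus start) was 144 bases on X and 139 elsewhere, and the longest X interval spanned 11156 bases. The 139 X intervals that spanned at least 1000 bases were 2.11% of the X intervals and held 53.8% of the reads.

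Intervals with no annotated gene and intervals over genes both carried many reads. In the RefSeq annotation, 3492 X intervals overlapped no gene and held 41.8% of X reads. A further 2832 overlapped a protein-coding gene by at least 1 base and held 49.4%, and 197 overlapped a pseudogene and held 7.40%. When at least 50% of the interval had to lie in the gene, the share of reads in intervals with no gene was 68.0%. Several of the longest intervals overlap a gene by less than that. When X was cut into 3 equal parts, 53.2% of the reads lay in the right-hand part, 28.1% in the left-hand part and 18.7% in the middle.

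**Figure D1:**
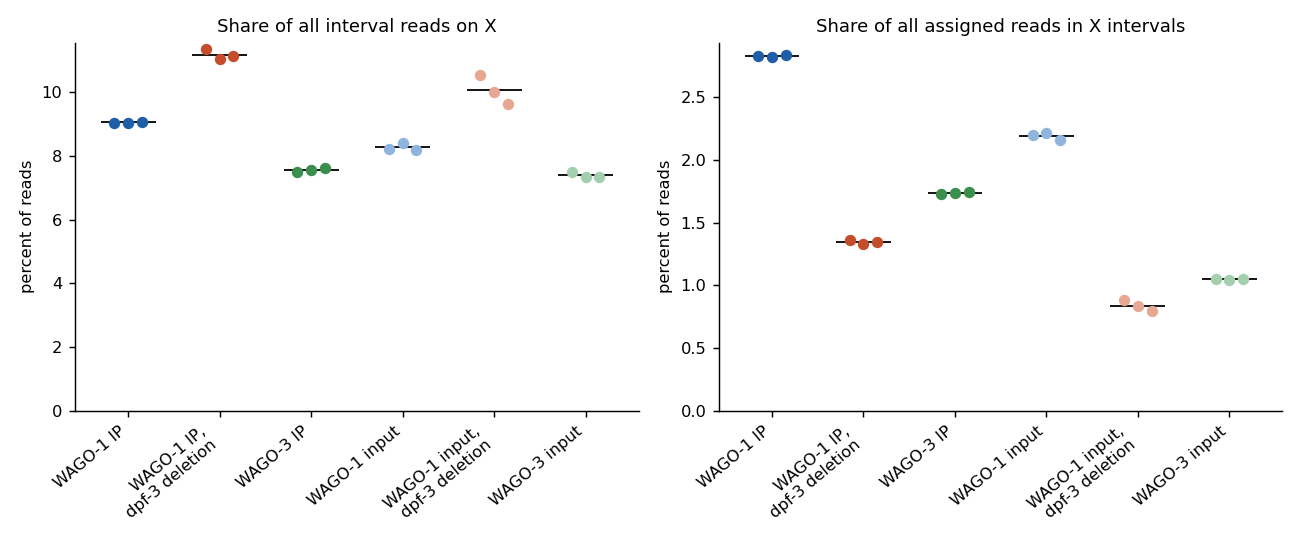
Share of reads on X in each of the 18 libraries (points, 3 per group) with the group mean (line); left, percent of all interval reads that lay on X; right, percent of all reads assigned to genes or intervals that lay in X intervals. With the dpf-3 deletion the left share was higher (11.2% against 9.05% in the IPs) and the right share lower (1.35% against 2.83%).

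X intervals made up a larger part of interval reads in the dpf-3 deletion than in intact animals, but a smaller part of all assigned reads. Among interval reads, the X share was 9.05% ± 0.0223 in the WAGO-1 IP, 11.2% ± 0.160 in the deletion IP and 7.55% ± 0.0647 in the WAGO-3 IP (SD, n = 3 each). In the matching inputs it was 8.26% ± 0.123, 10.1% ± 0.455 and 7.39% ± 0.0920. Among all assigned reads, X intervals took 2.83%, 1.35% and 1.73% in the 3 IPs and 2.19%, 0.837% and 1.05% in the inputs. The smaller part with the deletion was not particular to X. In replicate A, intervals of all chromosomes held 904367 of 2894108 assigned reads in the intact IP and 676748 of 5649896 in the deletion IP. In the inputs they held 56054 of 209731 and 9600 of 115097. The deletion and intact libraries did not overlap in either share, in the IPs or in the inputs. With 3 against 3 libraries an exact two-sided permutation test cannot go below p = 0.1, the value it gave for each of these 4 differences (adjusted p = 0.109 over 12 tests).

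The rise of the X share among interval reads moved with the share of chromosome V. Intervals on V held 50.5% of interval reads in the intact IP and 38.2% in the deletion IP, and 48.9% and 35.5% in the inputs. With V left out, a choice made after the shares were seen, X held 18.3% ± 0.374 of the remaining interval reads in the intact IP and 18.1% ± 0.267 in the deletion IP, and the 2 groups of libraries overlapped. So the higher X share with the deletion was not present among the intervals of the chromosomes other than V.

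Pooled over the strains, X intervals took a larger share in IPs than in inputs. Over the 3 strains the X share of interval reads was 9.26% in IPs and 8.57% in inputs (p = 0.0005, adjusted p = 0.003, exact two-sided permutation of the IP and input labels within each strain). For the share of all assigned reads the means were 1.97% and 1.36% (p = 0.00025, adjusted p = 0.003 in the same exact test). Intervals of all chromosomes together went the same way in this second share. For WAGO-3 replicate A they held 832630 of 3614811 assigned reads in the IP and 29840 of 212387 in the input. The WAGO-3 libraries taken alone overlapped in the first share (p = 0.2, exact test). Without the X interval of most reads the first share for WAGO-3 was 6.60% in the IP and 6.65% in the input, so its direction turned.

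Most tested X intervals were enriched in every IP relative to its input. In the WAGO-1 IP of intact animals 288 of 359 were called higher and 3 lower, with a median log2 fold of 1.83. The background was 43.2% higher and 24.9% lower over all features, with a median of 0.52, and 76.2% higher and 6.2% lower for the 1420 tested intervals on other chromosomes (intervals elsewhere). In the deletion strain 184 X intervals were higher and 4 lower, against 32.9% and 21.2% of all features and 45.8% and 5.92% of intervals elsewhere. For WAGO-3, 252 were higher and 10 lower, against 34.8% and 26.8% of all features and 73% and 7.54% of intervals elsewhere. For WAGO-1 the share of X intervals called higher was 80.2%, close to that of intervals elsewhere, and the share called lower, 0.836%, was below it, differences that were not tested. The number of calls rests on how the libraries are scaled. With plain library totals in place of TMM factors, 101 X intervals were higher and 36 lower for WAGO-1, 58 and 13 in the deletion, and 109 and 26 for WAGO-3. With scaling factors taken from intervals alone, these were 160 and 23, 102 and 6, and 53 and 35. Such factors pull the folds of intervals toward a balance by construction.

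Any scaling moves all folds of a comparison by nearly the same amount, so the position of X intervals relative to all features is the steadier quantity. Total counts moved the median of all features from 0.52 to -0.92 for WAGO-1, from 0.40 to -0.67 in the deletion and from 0.23 to -1.39 for WAGO-3. The median X interval lay 1.32 above the median of all features on the log2 scale for WAGO-1, and 1.30 and 1.31 above it with the 2 other scalings. It lay 1.45 to 1.47 above in the deletion and 2.18 above for WAGO-3. Intervals on other chromosomes lay 1.16, 1.35 and 2.06 above, and genes lay 0.36, 0.30 and 0.36 below. Genes located on X differed between the proteins. Of 688 tested, 447 rose above the WAGO-1 input and 79 fell below it, and for WAGO-3 the numbers were 212 and 190. Over all 9869 tested genes the numbers were 3667 and 2805 for WAGO-1 and 2759 and 3005 for WAGO-3. For WAGO-3 the genes on X were thus close to all genes.

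The steepest WAGO-1 enrichments lay over genes with almost no reads in the input. An interval in mrp-3 (X:15937952-15938199, plus strand), which encodes an ABC transporter of the multidrug resistance protein family, had 43, 85 and 45 reads in the WAGO-1 IPs. The 3 intact inputs held 1 read in all, a ratio of 37.6 on the scaled levels with an exact 95% interval of 6.67 to 1495. An interval in ptr-5 (X:17319945-17320101, minus strand), a patched-related gene, had 47, 76 and 47 reads against 1, a ratio of 37.0 with an interval of 6.55 to 1469. Intervals and floors of this kind cover counting error only, since the use of molecular identifiers is not given in the sources used here. Both intervals were above the input, while the size of the enrichment is known only within wide limits. An unannotated interval near T26C11.3 (X:1833013-1833158, minus strand) was measured better, at 104, 89.5 and 92.1 CPM in the IPs and 3.36, 11.8 and 2.10 CPM in the inputs. Its log2 fold was 3.76 ± 0.31 (adjusted p = 9.0e-22).

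A few X intervals were depleted from the IPs. The interval in C36B7.4 (X:7085211-7085341, minus strand) had 0 reads in all 9 IP libraries. It had 5, 12 and 9 reads in the intact inputs, 16, 16 and 6 in the deletion inputs and 14, 6 and 12 in the WAGO-3 inputs. Taking 3 reads per group as the limit that a count of 0 allows, the inputs were at least 39.8-fold, 284-fold and 44.2-fold higher than the 3 IPs. An interval in F45B8.5 (X:14966395-14966547, plus strand) had 2, 7 and 22 reads in all in the 3 kinds of IP. Its inputs stood at 28.6 ± 1.44, 32.0 ± 18.1 and 42.0 ± 5.69 CPM. Every input library was above every IP library there. These RNAs were present in the extract at levels above those in either IP.

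The most abundant X intervals were mostly long, and 8 of the top 10 had less than 50% of their length in an annotated gene. The first by mean level spanned 4085 bases (X:16451872-16455957, plus strand) and touched the protein-coding gene F38E9.4. It stood at 6012, 6120.3 and 6266 CPM in the WAGO-1 IPs and at 5379, 5228 and 5271 CPM in the WAGO-3 IPs. In the deletion IPs it stood at 1327, 1321 and 1281 CPM, and the inputs followed the same order with 1466 ± 114, 816 ± 52.6 and 276 ± 33.6 CPM. Next came an interval of 11156 bases that touched Y81B9A.1 and Y81B9A.5 (X:9191835-9202991, plus strand), with 4178, 3935 and 3991 CPM for WAGO-1 but 662, 630.2 and 623 CPM for WAGO-3. An interval of 8172 bases at H11L12.1 (X:17703958-17712130, minus strand) had 2878 ± 105 CPM for WAGO-1 and 1639 ± 15.7 for WAGO-3. An unannotated interval near the left end (X:125694-126699, minus strand) went the other way, with 528, 609.8 and 585 CPM for WAGO-1 and 1707, 1691 and 1675 CPM for WAGO-3. These levels differed by strain in input as well as in IP, with 173 ± 19.3 CPM in the WAGO-1 input and 290.4 ± 11.0 in the WAGO-3 input at that last interval.

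Per length the order changed. The interval in srd-50 (X:13481365-13481555, plus strand), of a family of chemoreceptor genes, spanned only 190 bases. It reached 8302 CPM per kilobase in the WAGO-1 IP, against 1501 for the interval at F38E9.4, 1188 for one at K09E3.2 (X:17117379-17118496, plus strand) and 362 for the one at Y81B9A.1. The other 6 of the 10 most abundant intervals lay between 325 and 1137 CPM per kilobase. Of the 10, 8 were on the plus strand.

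Many abundant intervals lay side by side. Joining tested X intervals with gaps of at most 2000 bases gave 19 runs of 3 or more, which held 80 of the 359 intervals. The largest run (X:17116753-17129470) had 11 intervals, all on the plus strand, with 68422 reads, 8.66% of all X reads. All 11 were lower in the deletion IP than in the intact IP (log2 folds of -4.51 to -1.59). Of all tested X intervals, in runs or not, 88.0% were lower. Runs of 7 intervals (X:7344566-7351744) and of 6 (X:7361115-7365718), the second over the pseudogene C07D8.2, also lay wholly on the plus strand. They held 4.42% and 4.24% of X reads, and all 13 intervals were lower in the deletion IP. A run near the left end of X (X:121979-128545) had 6 intervals with folds of -4.76 to -3.35. Its summed level was 903 CPM in the WAGO-1 IP, 46.2 in the deletion IP and 2370.2 in the WAGO-3 IP.

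Spans recurred within these runs and across the chromosome. Tested plus-strand intervals of 184 or 185 bases occurred in 3 of the runs (at X:7345007-7345191, X:7365534-7365718 and X:17117193-17117378), with 3929 to 4925 reads each and folds of -4.79 to -4.51 with the deletion in the IP. Intervals of 340 or 341 bases lay in the same 3 runs and beside srd-50, with 888 to 1326 reads and folds of -3.09 to -2.83. Intervals of 3284 or 3285 bases occurred 3 times (X:15397518-15400802, X:17280317-17283602 and X:2004953-2008238, all plus strand), with 8311 to 15524 reads and folds of -3.13 to -3.06. These groups were picked for their tight folds. In all, 41 groups of 3 or more tested X intervals shared a span to within 1 base, 138 intervals together, and in others the folds were wide, such as -2.24 to 1.86 at 52 bases. How reads with several genomic positions were assigned is not given in the sources used here, so such intervals may share reads and are not independent of each other.

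**Figure D2:**
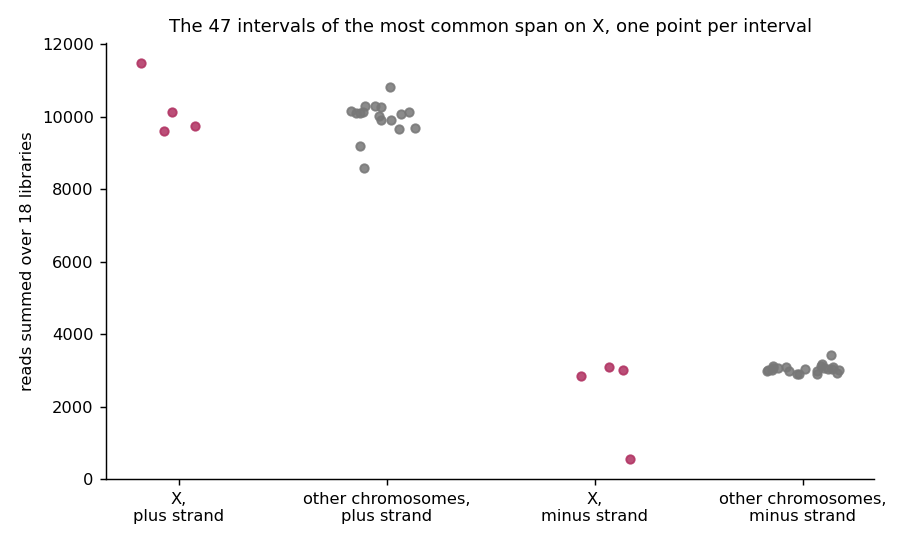
Reads summed over 18 libraries for each of the 47 intervals that span exactly 1241 bases, by strand, on X and on other chromosomes. Plus-strand intervals sit between 8597 and 11501 reads and minus-strand ones between 2849 and 3436, apart from 1 on X at 563.

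The clearest case was a span of 1241 bases, found 8 times on X and 39 times elsewhere. The 4 plus-strand intervals on X had 9615 to 11501 reads and the 17 elsewhere had 8597 to 10836. On the minus strand 3 of the 4 on X had 2849 to 3099 reads and the 22 elsewhere 2900 to 3436. The remaining interval (X:1227011-1228252), in C46H3.2, had 563. The X folds with the deletion in the IP were -1.82 to -1.70 for 7 intervals and -2.77 for the one in C46H3.2. The part that reads with several positions play in this was not tested. Of the 359 tested X intervals, 130 had a copy elsewhere in the table with the same strand, a span within 1 base and total counts within 20%. They held 28.3% of the reads of tested X intervals. The 229 without such a copy gave much the same picture, with 210 lower and 7 higher in the deletion IP against 106 and 12 for those with a copy.

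With dpf-3 deleted, most X intervals fell in the WAGO-1 IP relative to the other features. Of 359, 316 were called lower and 19 higher, with a median log2 fold of -1.79. Of all features 31.8% were lower and 30.6% higher, with a median of 0.07, and of intervals on other chromosomes 82.2% were lower and 2.68% higher. Genes on X moved the same way, with 526 of 688 lower and 7 higher. Among all 9869 tested genes, 2226 were lower and 3502 higher. The median X interval lay 1.87 below the median of all features, and 1.86 and 1.85 below with total counts and with interval-based factors. Intervals elsewhere lay 2.00 below. The split of the calls does depend on the scaling, which moved the median of all features from 0.07 to 1.19 and 2.14. Total counts gave 237 lower and 43 higher. Factors from intervals alone gave 105 lower and 163 higher, a more even split that this scaling favours by construction. The fall is therefore a statement about X intervals relative to the other small RNAs in the same IP.

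**Figure D3:**
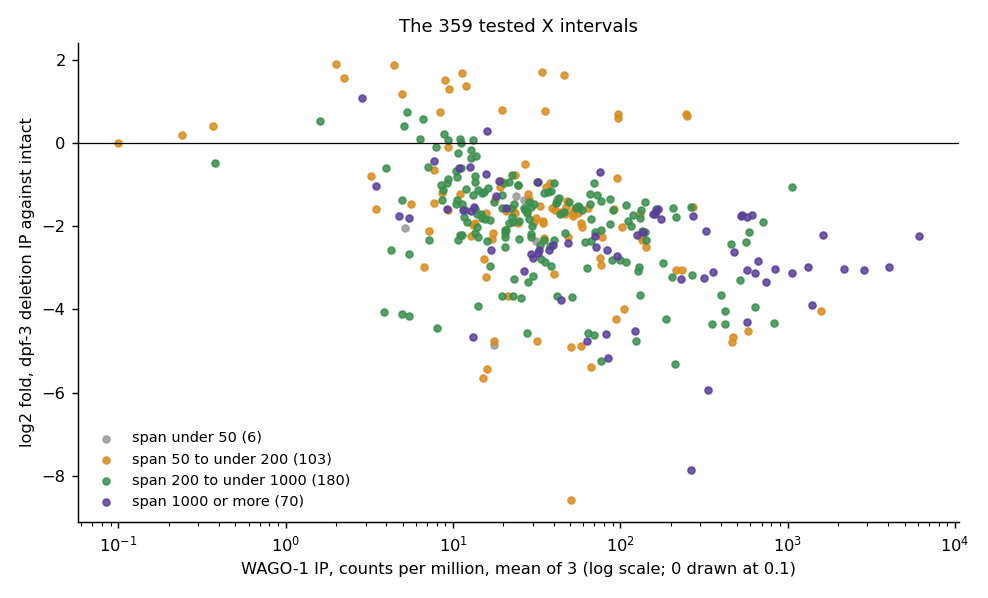
Log2 fold of the dpf-3 deletion IP against the intact WAGO-1 IP for the 359 tested X intervals, against the mean level in the intact IP (CPM, log scale, 0 drawn at 0.1); colours mark the span in bases. Of the 19 intervals called higher, 17 span 50 to under 200 bases, and those of 1000 bases or more lie almost all below 0.

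The largest falls left almost nothing in the deletion IP. An interval in the pseudogene T08D2.2 (X:169348-169497, plus strand) had 65, 147 and 131 reads in the intact IPs and 1, 0 and 0 in the deletion IPs. The ratio on the scaled levels was 856 with an exact 95% interval of 153 to 33888. The WAGO-3 IPs held 35.7, 33.7 and 36.3 CPM there. An interval in F23A7.5 (X:16234996-16236011, plus strand) stood at 248, 266 and 279.9 CPM intact and at 1.17, 0.847 and 1.18 CPM in the deletion, a log2 fold of -7.85 ± 0.16 (adjusted p = 6.5e-81). An interval at dsl-4 (X:14091981-14093598, plus strand), which encodes a ligand of the Delta, Serrate and LAG-2 family, stood at 389, 309 and 299 CPM against 5.34, 4.66 and 5.71, a log2 fold of -5.94 ± 0.13 (adjusted p = 7.1e-78). In all 3 the lowest intact library was over 40 CPM and the highest deletion library under 6 CPM.

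Further intervals fell by 4.79 to 5.39 on the log2 scale. In cgt-2 (X:17697094-17697655, minus strand), a gene for ceramide glucosyltransferase, the IP level was 224, 218 and 192 CPM intact and 6.67, 4.87 and 4.03 CPM with the deletion (log2 fold -5.31 ± 0.13, adjusted p = 2.2e-73). In gcc-1 (X:3162854-3163009, plus strand), a gene for a Golgi coiled-coil protein, it was 57.9 ± 18.3 and 1.78 ± 0.789 CPM. The others lay outside annotated genes, at X:16838267-16838329, X:253811-254326, X:3746466-3754513 and X:3771204-3771298 on the minus strand and X:7345007-7345191 on the plus strand. The interval at X:16838267 was also low with WAGO-3, at 2.33 ± 0.637 CPM, beside 1.47 ± 0.390 with the deletion. The interval at X:3771204 stood at 67.3 ± 11.5 CPM with WAGO-3 and 50.4 ± 14.1 with intact WAGO-1, and those libraries overlapped. Low recovery in the deletion thus went with both low and high WAGO-3 levels.

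The falls at the 10 most abundant intervals ranged from 1.06 to 4.31 on the log2 scale. The log2 fold was -2.23 ± 0.07 at F38E9.4, -2.99 ± 0.07 at Y81B9A.1, -3.06 ± 0.07 at H11L12.1 and -2.98 ± 0.08 at K09E3.2. With interval-based factors the call was lost at F38E9.4 (-0.14, adjusted p = 0.0601) and at another of the 10, over C07D8.2 (X:7361115-7364110; -0.12, adjusted p = 0.109). At srd-50 the level went from 1618, 1606 and 1509 CPM to 105, 84.9 and 96.1, a log2 fold of -4.04 ± 0.08 (adjusted p = 1.2e-83). At the left-end interval (X:125694-126699) it went from 574 ± 41.8 to 29.1 ± 4.42 CPM, a log2 fold of -4.31 ± 0.09. The smallest fall among the 10 was at an unannotated interval near spc-1, the gene for alpha spectrin (X:3129614-3130553, plus strand). It went from 1027, 1118 and 1058 to 549, 491 and 497 CPM, a log2 fold of -1.06 ± 0.07, and turned to 0.079 with total counts and to 1.03 with interval-based factors. That interval thus took about the same share of all assigned reads in both strains.

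**Figure D4:**
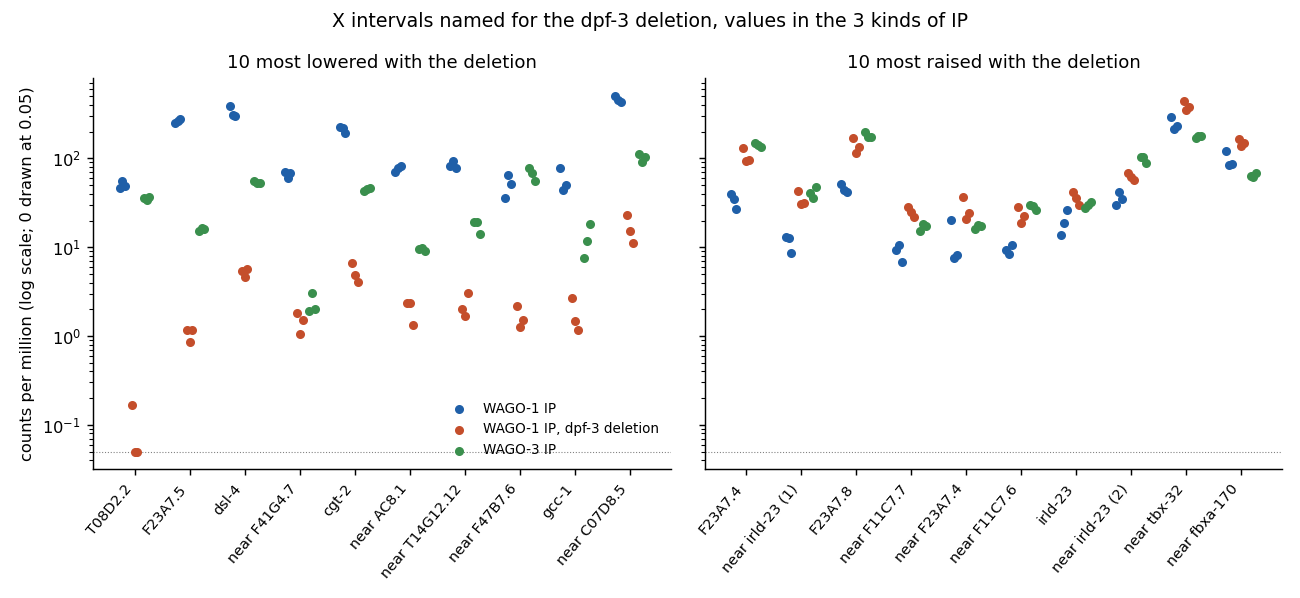
Levels (CPM, log scale, 1 point per library, 0 drawn at 0.05) in the intact WAGO-1 IP, the deletion IP and the WAGO-3 IP. Shown are the 10 X intervals most lowered and the 10 most raised with the dpf-3 deletion, labelled by the gene overlapped or the nearest gene. Libraries of the intact and deletion IPs do not overlap at any of the 20, and the choice of intervals required this.

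Of the 19 intervals that rose in the deletion IP, 17 spanned 50 to under 200 bases, and 12 had a near-equal copy. The runs at X:16212617, X:17074758 and X:17399666 held 3 of them each. All 6 tested X intervals of exactly 92 bases rose (log2 folds 0.78 to 1.70), and so did all 4 of exactly 95 bases (0.61 to 0.69). On the other chromosomes 226 intervals of 92 bases and 204 of 95 bases included 1 tested interval each. The 92-base intervals lay in pairs less than 1000 bases apart, at X:16212617 on the plus strand and at X:17075115 and X:17399918 on the minus strand. Both spans were singled out after the folds were seen.

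An interval in F23A7.4 (X:16212617-16212709, plus strand) stood at 39.7, 35.0 and 26.9 CPM in the intact IPs and at 130.4, 93.6 and 95.9 CPM in the deletion IPs, a log2 fold of 1.70 ± 0.13 (adjusted p = 1.4e-25). Its partner in F23A7.8 (X:16213384-16213476, plus strand) stood at 51.3, 44.5 and 42.3 CPM against 169, 114 and 134, a log2 fold of 1.62 ± 0.11 (adjusted p = 4.8e-27). With WAGO-3 they stood at 142 ± 6.21 and 183 ± 12.0 CPM, and every WAGO-3 library was above every deletion library. In the intact strain the inputs stood at 39.8 ± 12.0 and 52.8 ± 17.4 CPM, and neither interval was called enriched. The same run held 2 intervals that fell, so neighbours a few kilobases apart moved in opposite directions.

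Beside irld-23, which encodes a protein with an insulin and EGF receptor L domain, an interval (X:17075554-17075646, minus strand) rose from 11.4 ± 2.42 to 35.3 ± 7.10 CPM, a log2 fold of 1.67 ± 0.18. Its partner (X:17075115-17075207, minus strand) rose from 35.6 ± 6.13 to 62.4 ± 5.17 CPM, a log2 fold of 0.78 ± 0.12. Near F11C7.7 and F11C7.6, the pair at X:17399918-17400010 and X:17400536-17400628 rose by 1.51 ± 0.19 and 1.30 ± 0.20. Across all 6 of the 92-base intervals the WAGO-1 IP was not called above its intact input, with log2 folds of -0.68 to -0.26 and 1 called lower. The WAGO-3 IP was called above its input at 5 of 6. The 95-base intervals differed, since all 4 were called above input in every IP. One of them, near the T-box gene tbx-32 (X:1657395-1657490, plus strand), was at 295, 213 and 231 CPM intact and 447, 353 and 377 CPM with the deletion, a log2 fold of 0.69 ± 0.09.

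The inputs of the deletion strain were also lower over X. Of 359 intervals 146 were lower and 2 higher than in intact inputs, with a median log2 fold of -2.03. Of all features 14.9% were lower and 8.61% higher, with a median of 0.02, and of intervals elsewhere 47.9% and 0.563%. The median X interval lay 2.05 below that of all features under all 3 scalings, while total counts gave 106 lower and 11 higher and interval-based factors 56 and 23. The interval in F23A7.5 had 35, 108 and 72 reads in the intact inputs and 0 in the deletion inputs, which makes it at least 36.6-fold lower. At dsl-4 there were 11, 51 and 24 reads against 0, at least 14.6-fold lower. Intervals in obr-3 (X:13807507-13808415, plus strand), of the oxysterol-binding protein family, and in F52E10.4 (X:16289748-16289898, plus strand) were at least 8.86-fold and 6.13-fold lower. An interval in daf-6 (X:14890806-14891063, plus strand), a patched-related gene needed for the lumen of sensory organs, was at least 6.30-fold lower. All 5 had 0 reads in the 3 deletion inputs, whose 743 to 1012 X reads set these limits.

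The 2 intervals that were higher in the deletion input were those in C36B7.4 and near tbx-32. The first had 17.8 ± 1.04 CPM in intact and 53.1 ± 27.8 in deletion inputs, a log2 fold of 1.52 ± 0.42 (adjusted p = 0.0028 by edgeR). It lost the call without deletion input B (adjusted p = 0.0682). The second had 50.5, 39.7 and 33.6 CPM in intact and 88.1, 52.2 and 70.0 in deletion inputs, a log2 fold of 0.83 ± 0.30 (adjusted p = 0.027), and lost the call when any of 8 single libraries was left out (adjusted p up to 0.234, without deletion input A). It also lost the call in DESeq2 (0.66, adjusted p = 0.104) and with no filter on low counts (0.58, adjusted p = 0.541).

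Enrichment over input was called changed with the deletion at few X intervals. The comparison rests on the shallow deletion inputs, so few calls do not show that few intervals changed. The interaction of the deletion with the IP was called higher at 3 of 359 and lower at 1, against 1.55% and 0.661% of all features and 0.563% and 0.634% of intervals elsewhere. The X median was 0.05 and that of all features 0.10. With all counted reads as library size 61 X intervals were called higher and 0 lower, and the medians were 1.10 over X and 1.14 over all features. That setting called 3862 of all 11648 features and 321 of the 1420 intervals elsewhere higher, so the shift was not particular to X. The 3 called higher were all of the 92-base class, in F23A7.8 (log2 difference 1.74 ± 0.32, adjusted p = 7.0e-05), in F23A7.4 (1.13 ± 0.33, adjusted p = 0.045) and beside irld-23 at X:17075115 (1.11 ± 0.33, adjusted p = 0.047). The F23A7.4 interval fell outside the rule for named intervals and is given because the count is small. At F23A7.8 the IP to input log2 fold was -0.26 ± 0.21 intact and 1.48 ± 0.23 with the deletion. The 1 called lower was the unannotated interval of 4346 bases in the largest run (X:17123119-17127465), with 2182 ± 207 and 266 ± 10.4 CPM in the IPs and 601 ± 61.4 and 118 ± 12.8 in the inputs, a log2 difference of -0.66 ± 0.20 (adjusted p = 0.046).

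Most of these few calls were not stable. Leaving out any WAGO-1 IP or WAGO-3 IP library moved the median of all features in this interaction from 0.10 to between 0.66 and 0.67 and gave 20 to 24 X intervals higher and 0 lower, even though the WAGO-3 libraries take no part in it. The value at X:17123119 was 0.0058 without intact IP A. The call at F23A7.8 held without each library in turn (log2 difference 1.40 to 2.38, highest adjusted p = 0.0469) and under each of the other settings tried.

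WAGO-3 and WAGO-1 enriched many X intervals to different degrees. The ratio of IP to input was called larger for WAGO-3 at 69 of 359 X intervals and smaller at 20, with a median log2 difference of 0.66. Of all features 12.4% were larger and 15% smaller, with a median of 0.04, and of intervals elsewhere 23.5% and 6.27%. Genes on X went the other way, with 39 of 688 larger and 176 smaller and a median of -1.16. Among all 9869 tested genes, 1047 were larger and 1641 smaller, with a median of -0.09. Interval-based factors, which pull interval folds toward a balance by construction, turned the split for X intervals to 23 larger and 60 smaller. The X median stayed 0.62 to 0.64 above that of all features under the 3 scalings. Leaving out any 1 WAGO-1 IP or WAGO-3 IP library gave 105 to 115 larger.

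**Figure D5:**
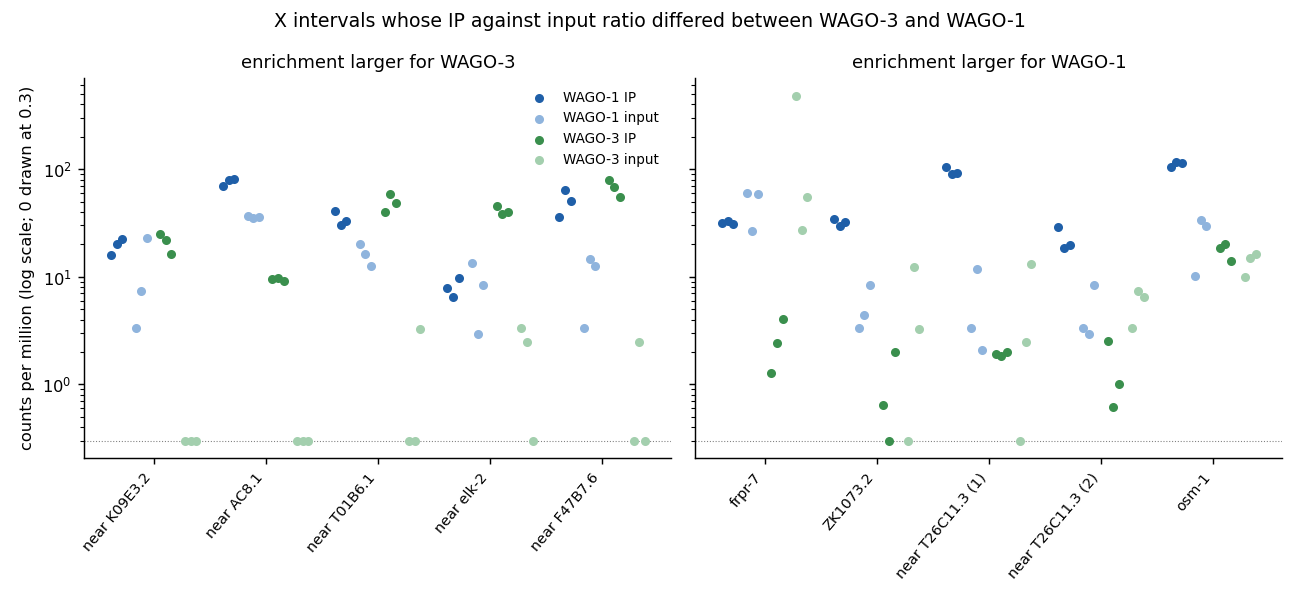
Levels (CPM, log scale, 1 point per library, 0 drawn at 0.3) in IP and input for WAGO-1 and WAGO-3 at the 10 X intervals with the largest difference in enrichment, labelled by the gene overlapped or the nearest gene. At the 5 with the larger WAGO-3 enrichment the WAGO-3 inputs hold 0 to 2 reads, and at the other 5 the WAGO-3 IP lies below the WAGO-1 IP.

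Of the 69 called more enriched with WAGO-3, 36 overlapped no RefSeq gene, a share near that of all tested X intervals (175 of 359). The 5 named by rule, described here, were all among the 36 and had at most 2 reads over the 3 WAGO-3 inputs. At X:17118494-17118722 (plus strand), in the largest run, the WAGO-3 IP stood at 24.9, 22.1 and 16.1 CPM with 0 reads in its inputs, at least 7.32-fold higher. WAGO-1 held 19.5 ± 3.33 CPM there with 11.3 ± 10.4 in its input. At X:253811-254326 (minus strand) the WAGO-3 IP held only 9.57, 9.81 and 9.08 CPM, less than the 76.6 ± 5.79 of WAGO-1, and its inputs again 0 reads, at least 3.22-fold higher. The larger enrichment there went with an empty input and not with a higher IP level.

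The other 3 had a higher mean in the WAGO-3 IP than in the WAGO-1 IP. That difference between the IPs was not tested, and at X:3771204-3771298 the libraries of the IPs overlapped. At X:111560-111880 (minus strand) the levels were 45.9, 38.0 and 40.4 CPM for WAGO-3 and 7.95, 6.47 and 9.73 for WAGO-1, a log2 difference in enrichment of 4.12 ± 0.98 (adjusted p = 0.00043). At X:2353040-2353258 (plus strand) they were 48.7 ± 9.35 and 35.0 ± 5.56 CPM (4.43 ± 0.93, adjusted p = 5.9e-05). At X:3771204-3771298 (minus strand) they were 67.3 ± 11.5 and 50.4 ± 14.1 CPM (3.85 ± 1.05, adjusted p = 0.0024). The WAGO-3 inputs of these 3 held 2, 1 and 1 reads. The WAGO-3 ratios of IP to input were 21.0 (exact 95% interval 5.73 to 175), 49.5 (8.78 to 1964) and 69.7 (12.4 to 2764) in that order.

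Of the 5 intervals named as less enriched with WAGO-3, all but the one in osm-1 stood below 5 CPM in each WAGO-3 IP. In ZK1073.2 (X:16110046-16111518, plus strand) WAGO-3 IPs held 1, 0 and 2 reads and WAGO-1 IPs 48, 78 and 87, that is 0.885 ± 1.03 against 32.3 ± 2.50 CPM. At X:1833013-1833158, near T26C11.3, the levels were 1.91, 1.84 and 2.02 CPM against 104, 89.5 and 92.1. The interval beside it at X:1833876-1834382 stood at 1.39 ± 1.02 against 22.5 ± 5.61 CPM. The deletion IP kept 52.6 ± 5.61 CPM at the first of this pair and 12.4 ± 0.670 at the second, so both were recovered with WAGO-1 in either strain. In osm-1 (X:16545649-16545904, minus strand), a gene for an intraflagellar transport protein of ciliated neurons, WAGO-1 held 112 ± 5.56 and WAGO-3 17.6 ± 3.15 CPM.

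In frpr-7, which belongs to a family of neuropeptide receptor genes and overlaps F39B3.3, an interval (X:17578693-17579127, minus strand) stood at 31.8, 32.7 and 30.7 CPM in the WAGO-1 IP and 1.28, 2.45 and 4.04 in the WAGO-3 IP. Its WAGO-3 inputs held 481, 27.3 and 55.5 CPM, so 1 library set the mean. The log2 difference in enrichment was -5.66 ± 0.60 (adjusted p = 1.0e-14) and -3.52 without WAGO-3 input A, the highest of these, and the call held under every alternative run. For the interval at X:1833013 the call was lost without WAGO-3 input C (adjusted p = 0.262), and for ZK1073.2 without WAGO-3 input B (adjusted p = 0.231).

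Intervals inside genes can be set beside the count of the gene itself. For 77 tested X intervals the table also held a tested count for the overlapped gene, 58 genes in all. With the deletion in the IP, 71 of the 77 intervals and 68 of the gene counts were lower, 65 of them together. None was lower with its gene higher. Of all tested X intervals 88.0% were lower, and of tested genes on X 76.5%. Only 2 of the 77 gene counts were higher, so few pairs could have gone opposite ways. The median log2 fold was -1.62 for the intervals and -1.97 for the genes. The correlation of the folds across the 77 was weak (Pearson's r 0.32, Spearman's rho 0.25), a description over intervals of shared libraries with several intervals in 1 gene.

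Across kinds of X interval the fall with the deletion was general. It was called at 155 of 175 tested intervals with no gene (median log2 fold -2.11), 138 of 157 over protein-coding genes (-1.63), 18 of 19 over pseudogenes (-2.39) and 5 of 8 over other RNA genes (-0.73). By span it was called at 67 of 70 of at least 1000 bases (-2.42), 162 of 180 of 200 to under 1000 (-1.79), 81 of 103 of 50 to under 200 (-1.66) and all 6 under 50 (-1.71). By position it was called at 118 of 131 in the left-hand part of X, 41 of 48 in the middle and 157 of 180 in the right-hand part. By strand it was called at 190 of 218 plus and 126 of 141 minus intervals. The rises were less evenly spread, since 17 of 19 lay in the class of 50 to under 200 bases and none in the middle of X. None of these differences between classes was tested. The genes of the 53 intervals named by rule held 56 further X intervals, of which 4 passed the filter. All 4 were lower in the deletion IP, as were 88.0% of all tested X intervals.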

How the data were processed

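The authors deposited 1 table of read counts per gene and interval, not normalised, for the 18 libraries. Tools named in the submitters' processing notes are Bowtie 1.2.3, HTSeq 0.11.2, cutadapt 2.3 and SAMtools 1.9, with the build ce11, to which all coordinates refer. Whether a start counts from 0 or 1 is not given in the sources used here. Reads assigned to no feature, 32.5% to 38.6% of counted reads in IPs and 68.6% to 82.4% in inputs, stayed out of library sizes and tests. From the counts, edgeR 4.0.16 (R 4.3.3) fitted a quasi-likelihood model of the 6 groups to the 11648 features that passed filterByExpr (minimum count 10), with TMM factors of 0.434 to 2.37, and 7 contrasts were tested with Benjamini-Hochberg adjustment over all features. Levels are TMM-scaled CPM. Alternatives were total counts, all counted reads, TMM from intervals alone, no filter, a minimum count of 30, DESeq2 1.42.0, a replicate block and each library left out. Leaving out near-equal copies, or chromosome V, was chosen after seeing the data. The fits were tested on simulated data with the same spread for every feature. Few features were changed there, in both directions, from equal levels in all groups. The recovery below therefore does not test the scaling where many features move. For the deletion against intact IP, log2 folds of 1, 2 and 3 were recovered in 74.6%, 95.5% and 100% of cases. For WAGO-1 IP against input this was 29.9%, 79.1% and 92.4%. For the deletion against intact inputs it was only 13.4%, 35.8% and 51.5%. Shares were compared by exact permutation tests (SciPy 1.17.1).

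Gene overlaps come from the RefSeq gene table of assembly WBcel235, which is the sequence of ce11. That table was used without strand. Intervals were named by rule. These are the 10 of highest mean level and, per contrast and direction, the 5 largest log2 folds (10 for the deletion IP against the intact IP) among called intervals. These had a mean of at least 20 CPM in one of the groups compared. For a comparison of one group with another, their libraries did not overlap. For the interactions, the log differences of IP and input, taken over every pairing of libraries, did not overlap. Other X intervals in the same genes were added. Deviations of libraries with the same letter (A to C) had a median correlation of -0.001 between groups. With inputs this shallow that cannot settle whether the letters pair the libraries, and the main fit took them as unpaired. The members, groups and alternatives were chosen with earlier results of these data known. Sequences were not used here.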

Additional observations from a re-analysis of the deposited data

Results flagged for a closer look

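Among the X intervals, 13 named results differed between strains by a test of the difference itself, the interaction term of edgeR's quasi-likelihood model. Values are log2 differences, and causes were not tested.

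For the change of WAGO-1 enrichment with the dpf-3 deletion these were X:16213384-16213476 in F23A7.8 (1.74), X:17075115-17075207 beside irld-23 (1.11) and X:17123119-17127465 (-0.66). The first held without each library in turn, with an adjusted p of at most 0.0469. The second ranged from 0.72 to 1.81 and lost the call in 6 of these fits (adjusted p up to 0.41, without deletion input C) and with a minimum count of 30 (0.142). The third ranged from -0.74 to 0.0058.

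For WAGO-3 enrichment against WAGO-1 enrichment, those larger with WAGO-3 were X:17118494-17118722 (7.44), X:253811-254326 (5.93), X:2353040-2353258 (4.43), X:111560-111880 (4.12) and X:3771204-3771298 (3.85). The first 2 rest on WAGO-3 inputs with 0 reads, so their fitted sizes depend on the prior count and are no bounds. The second lost the call without any 1 WAGO-3 input (adjusted p up to 0.0973), in DESeq2 (adjusted p = 0.0633), with no filter (0.0923) and with TMM from intervals alone (0.107). Those smaller with WAGO-3 were X:17578693-17579127 in frpr-7 (-5.66), X:16110046-16111518 in ZK1073.2 (-5.45), X:1833013-1833158 (-5.10), X:1833876-1834382 (-4.13) and X:16545649-16545904 in osm-1 (-1.65). The last ranged from -1.97 to -1.15 and lost the call without any of 6 single libraries and with no filter (adjusted p = 0.0633).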

How the results depend on the processing

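Depth limits the inputs, above all those of the deletion, and the scaling limits every count of calls. The causes of the changes below were not tested. The X share of interval reads, in the order WAGO-1, deletion and WAGO-3 IP and then the same inputs, was 8.16%, 10.1%, 6.60%, 7.57%, 9.38% and 6.65% without the interval of most reads. It was 18.3%, 18.1%, 14.1%, 16.2%, 15.6% and 13.2% without chromosome V. Filtered intervals alone gave 8.81%, 10.8%, 7.38%, 7.98% and 7.21%, with the deletion input within its SD. Without near-equal copies it was 8.85%, 6.70%, 7.92% and 6.66%, with both deletion groups within their SD. The share of all assigned reads, in the same order, was 2.53%, 1.204%, 1.501%, 1.99%, 0.774% and 0.936% without the interval of most reads and 2.69%, 1.21%, 1.65%, 2.04%, 0.722% and 0.977% from filtered intervals. With single libraries left out the shares were 9.04 to 9.06, 11.1 to 11.2, 7.52 to 7.58, 8.19 to 8.31, 9.83 to 10.3 and 7.33 to 7.42% of interval reads, and 2.82 to 2.83, 1.34 to 1.35, 1.73 to 1.74, 2.18 to 2.21, 0.816 to 0.858 and 1.05 to 1.05% of all assigned reads.

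Counts under another filter have another base and do not compare directly with those of the main fit. A minimum count of 30 left 170 X intervals among 7493 features, no filter left 3986 among 46911, and the other settings 359 among 11648. For WAGO-1 against input, X intervals called higher were 101 with total counts, 160 with interval TMM and 155 with a minimum count of 30. With that minimum 3537 of the 7493 features were higher. Those X intervals called lower were 36 with total counts, 23 with interval TMM, 8 with all counted reads and 6 with no filter. In the deletion strain the higher were 58, 102 and 107 and the lower 13 with total counts and 7 with DESeq2. For WAGO-3 the higher were 109, 53 and 148 and the lower 26, 35 and 3. Deletion against intact IP gave 43, 163, 52 (all counted reads) and 35 (no filter) higher. It gave 105 (interval TMM), 632 (no filter) and 154 (minimum 30) lower. Over all features 5031 of 46911 were lower with no filter and 2556 of 7493 with a minimum of 30. In the inputs it gave 11, 23, 1 (no filter) and 1 (DESeq2) higher and 56 (interval TMM) lower. The change of enrichment gave 11, 12, 61 (all counted reads), 10 (no filter) and 1 (minimum 30) higher. With all counted reads 3862 of 11648 features were higher too. The X intervals called lower were 0 with total counts, interval TMM, all counted reads and no filter, 3 with a minimum of 30 and 4 with DESeq2. WAGO-3 against WAGO-1 enrichment gave 23 (interval TMM) higher and 60 (interval TMM), 13 (no filter) and 10 (minimum 30) lower.

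Leaving out single libraries gave 243 to 288 higher and 3 to 12 lower for WAGO-1, 140 to 202 and 2 to 6 in the deletion, 227 to 252 and 5 to 10 for WAGO-3, 19 to 27 and 292 to 316 for deletion against intact IP, 1 to 2 and 116 to 157 for the inputs, 1 to 24 and 0 to 2 for the change of enrichment and 56 to 115 and 10 to 21 for WAGO-3 against WAGO-1. Of the named folds, the one at X:3129614 turned from -1.06 to 0.079 (total counts), 0.21 (all counted reads) and 1.03 (interval TMM), and the change at X:17123119 from -0.66 to 0.39 (all counted reads) and 0.0058 (without WAGO-1 IP A, the other end of its range over single libraries being -0.74).

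Whether the replicate letters pair the libraries was not settled. Same-letter deviations in different groups had a median correlation of -0.001 over 45 pairs, of which 1 exceeded 0.1. That pair was the A libraries of the intact and deletion WAGO-1 IPs, at 0.144. Pairs of different letters ran from -0.133 to 0.097. Many pairs include a shallow input, where a low correlation cannot exclude pairing. With the letter as a replicate block the counts were 288 higher and 4 lower for WAGO-1, 183 and 4 in the deletion, 252 and 10 for WAGO-3, 19 and 315 for deletion against intact IP, 2 and 150 for the inputs, 3 and 1 for the change of enrichment and 70 and 20 for WAGO-3 against WAGO-1.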
